A study of Homo sapiens and Mus musculus with 92 samples.

Results

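The replication-dependent histone genes were taken as the rows of the count table of the MLL1 knockdown experiment whose symbol began with HIST1H, HIST2H, HIST3H or HIST4H, and 74 of the 28103 gene symbols met this rule. The newer names of the same genes were searched as well, and 0 rows carried them. The members comprised 6 linker histone H1 genes, 18 H2A, 20 H2B, 15 H3 and 15 H4 genes. The RNA came from HEL cells, an established human erythroleukemic line labelled as human erythroblast. MLL1 (symbol KMT2A), the gene under study, encodes a histone H3 lysine methyltransferase. In the MLL1 experiment, 3 control libraries (Ctrl, genotype label WT, a non-targeting control shRNA per the study's methods) were set against 3 libraries of cells with a lentiviral shRNA to MLL1 (MLL1KD). A second experiment with its own 2 control libraries and 2 libraries with knockdown of AF9 (AF9KD, gene MLLT3) serves here as a contrast. All groups shared the line, and all 10 libraries are labelled as polyA RNA captured by oligo-dT beads. RNAs without a poly(A) tail nevertheless differed widely between the experiments, as given below, so a shared capture is known from the labels only. Each knockdown arm is a transduced cell population with 1 named hairpin in the MLL1 experiment, and no second hairpin or rescue is among these libraries.

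Replication-dependent histone genes supply the core histones H2A, H2B, H3 and H4, which wrap DNA into nucleosomes, and the linker histone H1, which binds the DNA between them. They are expressed mainly while DNA is being copied, lie in clusters, and lack introns. Their messages end not in a poly(A) tail but in a short stem-loop, which the stem-loop binding protein SLBP holds while the U7 small nuclear ribonucleoprotein directs the cut behind it. NPAT, a target of cyclin E and CDK2, acts as their shared transcriptional coactivator, and HINFP binds the promoters of the H4 genes.

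The stem-loop is printed here for 10 members because it is the end that sets these messages apart from the RNA an oligo-dT library is made to capture. The sequences are from hg38 as DNA letters, 5′ to 3′ on the gene's strand, with the 16 bases of the stem-loop in capitals and 5 bases on either side.
HIST1H1B: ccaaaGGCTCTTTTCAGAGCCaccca
HIST1H1C: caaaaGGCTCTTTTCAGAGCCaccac
HIST3H2A: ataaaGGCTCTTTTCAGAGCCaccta
HIST1H2BC: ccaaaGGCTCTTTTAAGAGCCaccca
HIST2H2AC: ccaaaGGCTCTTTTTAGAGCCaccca
HIST1H4H: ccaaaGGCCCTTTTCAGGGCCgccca
HIST1H2AK: aaaaaGGTTCTTTTCAGAGCCaccta
HIST1H2BI: ccaaaGGCTCTTCTAAGAGCCaccca
HIST1H3E: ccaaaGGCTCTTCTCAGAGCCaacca
HIST1H4L: tcaaaGGCCCTTCTCAGGGCCaccca
A stem-loop with a loop of 4 bases was found at all 74 members. Its stem had 6 base pairs in 70 of them and 5 in HIST2H2BC, HIST1H2APS1, HIST1H2AG and HIST1H2AK. In the 71 with an annotated stop codon it began 22 to 67 bases after it, with a median of 35. The 16 bases took 11 forms. The form of HIST1H1B was held by 42 members of classes H1, H2A, H2B and H3. Counting from 1 at the first capital and naming the base of HIST1H1B first, C10A set apart 10 members of these classes, among them HIST1H2BC, and T4C with A13G set apart 10 H4 genes, among them HIST1H4H. HIST2H2AC differed by C10T and HIST1H2AK by C3T. HIST1H2BI, HIST1H3E and HIST1H4L shared T8C, a change inside the loop, and were the 3 members with a mismatch to the searched loop. For 19 members the annotation also held a transcript running more than 100 bases past the stem-loop, and for 55 it held none.

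The HIST1 cluster held 56 members at chr6:25723397-27893891 (hg38, GENCODE v44), and the HIST2 symbols held 14 at chr1:121116862-149887965. The HIST3 cluster held 3 at chr1:228424845-228463104, and HIST4H4 stood alone at chr12:14767999-14771131. Promoters from RefSeq (GRCh38.p14, 250 bases before to 50 after the start) were matched for 66 members and searched on both strands for 4 short motifs. CCAAT, the box read by the factor NF-Y, was in 84.8% of the member promoters against 35.7% of all 27305 promoters. It was in all promoters of classes H1, H2A, H2B and H3 but in 3 of 13 of class H4. ATTTGCAT, the octamer bound by OCT1 (POU2F1), was in 39.4% of member promoters against 1.802% of all, and 25 of these 26 promoters belonged to H2A or H2B genes. These promoters are not all separate stretches. HIST1H2BG (minus strand, to 26216688) and HIST1H2AE (plus strand, from 26216921) start under 250 bases apart, so a match between such neighbours can count for both. GGTCC, a core of the H4 promoter element, was in 12 of 13 H4 promoters against 31.8% of member promoters and 46.1% of all promoters. TATAAA was in 66.7% of member promoters and 12.0% of all. A match is a description of these letters and is not a measured binding site.

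A pair of these promoters is shown without the 50 bases after the start because their genes recur in the results, with the motifs in capitals. The first runs from the HIST3H2BB start back into the annotated 5′ end of its neighbour HIST3H2A, and these genes are transcribed away from each other. This stretch holds CCAAT or its reverse complement 168, 150 and 76 bases before the HIST3H2BB start. The second belongs to HIST1H4D and holds GGTCC 44 and TATAAA 29 bases before the start.
HIST3H2BB, plus strand, chr1:228457853-228458102: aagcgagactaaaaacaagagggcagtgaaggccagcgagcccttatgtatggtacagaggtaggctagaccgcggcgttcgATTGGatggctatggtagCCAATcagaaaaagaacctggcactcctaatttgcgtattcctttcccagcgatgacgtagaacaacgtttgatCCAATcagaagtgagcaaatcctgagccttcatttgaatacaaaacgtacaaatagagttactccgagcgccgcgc
HIST1H4D, minus strand, chr6:26189113-26189362: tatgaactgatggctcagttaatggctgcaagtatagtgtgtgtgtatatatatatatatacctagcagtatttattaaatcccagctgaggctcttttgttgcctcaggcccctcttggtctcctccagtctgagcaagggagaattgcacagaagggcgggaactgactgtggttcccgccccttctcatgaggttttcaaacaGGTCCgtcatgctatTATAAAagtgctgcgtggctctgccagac

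The 6 libraries of the MLL1 experiment held 6966345 to 10380241 counts and the 4 of the AF9 experiment 12278989 to 14232408. Replicate 1 of the MLL1 experiment stood apart in both groups. The chi-square per degree of freedom between replicates of a group was 32.48 to 60.84 where replicate 1 was one of the pair, and 2.417 (Ctrl) and 2.71 (MLL1KD) between replicates 2 and 3. The labels do not say that replicates were separate cultures, so p-values measure the spread between these libraries, and they name no batch for replicate 1. All 12 erythroid and megakaryocyte markers were detected in every library, with a summed level of 3087 to 3810 CPM in the MLL1 experiment. Of 8 markers of other cell types CD3D was at 0 in all libraries, and their summed level was 0.7964 to 2.165 CPM except in MLL1KD replicate 3, where it was 16.52 CPM. That library held 83 counts of COL1A1 and 66 of COL1A2, against 4 to 9 and 1 to 4 in the other 5. The knockdown itself was visible in all replicates: KMT2A stood at 1320, 1300 and 1260 CPM in Ctrl replicates 1 to 3 and at 817, 814 and 833 CPM in MLL1KD (CPM here and below being counts scaled to TMM-adjusted library totals). Its log2 fold change was -0.655 (SE 0.09), with an adjusted p of 0.0721 in the comparison without and 2.25e-07 with replicate number as a block.

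The share of counts that fell on the histone genes was lowest in the 2 replicate 1 libraries of the MLL1 experiment. In Ctrl it was 0.6783% in replicate 1 (exact 95% binomial interval 0.6726 to 0.6841), 0.9897% in replicate 2 (0.9824 to 0.997) and 1.112% in replicate 3 (1.104 to 1.119). In MLL1KD it was 0.5115% in replicate 1 (0.5072 to 0.5159), 1.293% in replicate 2 (1.285 to 1.302) and 1.283% in replicate 3 (1.275 to 1.29). Thus MLL1KD lay below Ctrl in replicate 1 and above it in replicates 2 and 3. The intervals cover counting error only. In the AF9 experiment the same genes made up 0.01818% and 0.0188% of the control libraries and 0.007384% and 0.007693% of the AF9KD libraries, on 934 to 2587 counts. Most of these counts came from 2 members. HIST1H1C had 1320 and 1271 counts in the controls and 376 and 437 in AF9KD, and HIST1H2BK 940 and 747 against 332 and 354. The lower share in AF9KD is therefore mostly that of these 2 members. In these bulk samples, fewer cells in a given state and less RNA per cell cannot be told apart.

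**Figure D1:**
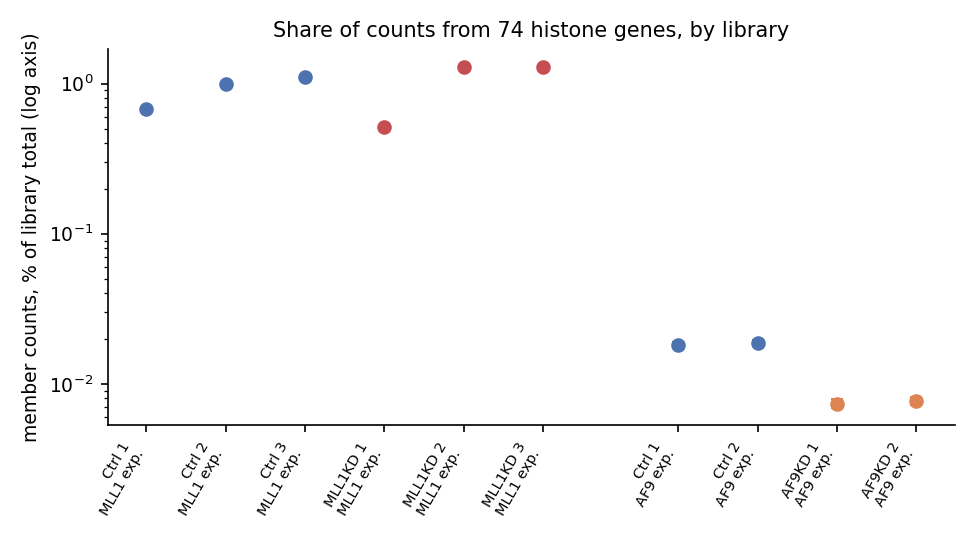
Counts of the 74 histone genes as a percentage of each library's total (log axis), for the 6 libraries of the MLL1 experiment and the 4 of the AF9 experiment, with exact 95% binomial intervals that are mostly within the markers. The MLL1 libraries lie between 0.5115% and 1.293%, with the replicate 1 libraries lowest, and the AF9 libraries lie between 0.007384% and 0.0188%.

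Of the 74 members, 58 passed the filter of a mean of 1 TPM in the MLL1 experiment and 16 did not. Among these 16, 11 had 0 counts in all 10 libraries. They were HIST2H3A, HIST2H2AA3, HIST2H4B, HIST2H3C, HIST2H4A, HIST2H2AA4, HIST3H3, HIST1H2BA, HIST1H2AA, HIST1H4G and HIST4H4, and a count of 0 allows up to 3 counts per library. The first 6 are near-identical copies that share 97.55% to 100% of their 50-base words with another gene, so reads from them may not have been assigned. HIST1H2APS1, HIST1H1A, HIST1H2BE, HIST1H2AD and HIST1H4F were detected in the MLL1 experiment at 8 counts or fewer per library. Read sharing also makes the values of other members uncertain: 96.48% of the 50-base words of HIST1H3D, 92.06% of HIST1H4J, 92.6% of HIST1H4K, 63.45% of HIST1H2AI, 66.28% of HIST1H2AJ, 67.81% of HIST1H2AM, 71.9% of HIST2H3D, 57.17% of HIST1H2BK and 50.57% of HIST2H2BF occur in another annotated gene. The pseudogenes HIST2H2BA and HIST2H2BC share all of theirs.

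HIST1H1B, a linker histone gene (chr6:27866792-27867588), had the highest mean level. It stood at 1210, 1370 and 1390 CPM in Ctrl replicates 1 to 3 and at 843, 1460 and 1410 CPM in MLL1KD, so the 2 replicate 1 libraries were lowest and the groups overlapped. HIST1H1C, a second linker histone gene (chr6:26055740-26056470), stood at 547, 822 and 939 CPM in Ctrl and at 333, 874 and 815 CPM in MLL1KD. Per kilobase of exon HIST1H1B reached a mean of 1610 CPM, HIST1H3B 997, HIST1H1C 987 and HIST2H2AC 963, so that linker, H3 and H2A genes were all among the most abundant. Linker histone genes together took 22.4% to 29.8% of the members' counts, H2A genes 22.8% to 28.6%, H2B genes 20.3% to 27.9%, H3 genes 15.0% to 20.6% and H4 genes 6.09% to 6.95%. H2B genes took a larger part in the 2 replicate 1 libraries (26.3% and 27.9%) than in the other 4 (20.3% to 21.6%), and H2A genes a smaller one (22.8% and 23.9% against 27.3% to 28.6%).

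Among the H3 genes with high levels, HIST1H3B (chr6:26031589-26032099) stood at 334, 476 and 552 CPM in Ctrl and at 272, 704 and 718 CPM in MLL1KD. HIST1H3C (chr6:26045384-26045869) stood at 213, 363 and 417 CPM in Ctrl and at 162, 504 and 510 CPM in MLL1KD. HIST1H3I (chr6:27871845-27872346) stood at 128, 287 and 336 CPM in Ctrl and at 88.2, 365 and 389 CPM in MLL1KD. In all 3 genes both replicate 1 libraries lay below the other 4. Their products are replication-dependent forms of histone H3.

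Among the H2A genes, HIST2H2AC (chr1:149886918-149887411) stood at 220, 454 and 552 CPM in Ctrl and at 227, 708 and 693 CPM in MLL1KD. HIST1H2AE (chr6:26216921-26217437) stood at 180, 318 and 341 CPM in Ctrl and at 137, 464 and 456 CPM in MLL1KD. Replicate 1 was again below the others in both groups. HIST1H2AJ (chr6:27814302-27814777) stood at 244, 336 and 359 CPM in Ctrl and at 190, 400 and 415 CPM in MLL1KD. HIST1H2AM (chr6:27892699-27893185) stood at 236, 295 and 336 CPM in Ctrl and at 191, 410 and 445 CPM in MLL1KD. The latter 2 share most of their words with other genes, as given above.

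Among the H2B genes, HIST2H2BF (chr1:149782689-149812373) stood at 373, 335 and 404 CPM in Ctrl and at 311, 524 and 545 CPM in MLL1KD. Its control replicate 1 lay between the other 2 controls. HIST1H2BC (chr6:26086317-26123926) stood at 323, 366 and 409 CPM in Ctrl and at 286, 483 and 468 CPM in MLL1KD. HIST2H2BE (chr1:149884459-149886682), which is 1 of the 19 members with an annotated transcript past the stem-loop, stood at 228, 288 and 329 CPM in Ctrl and at 160, 358 and 334 CPM in MLL1KD.

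**Figure D2:**
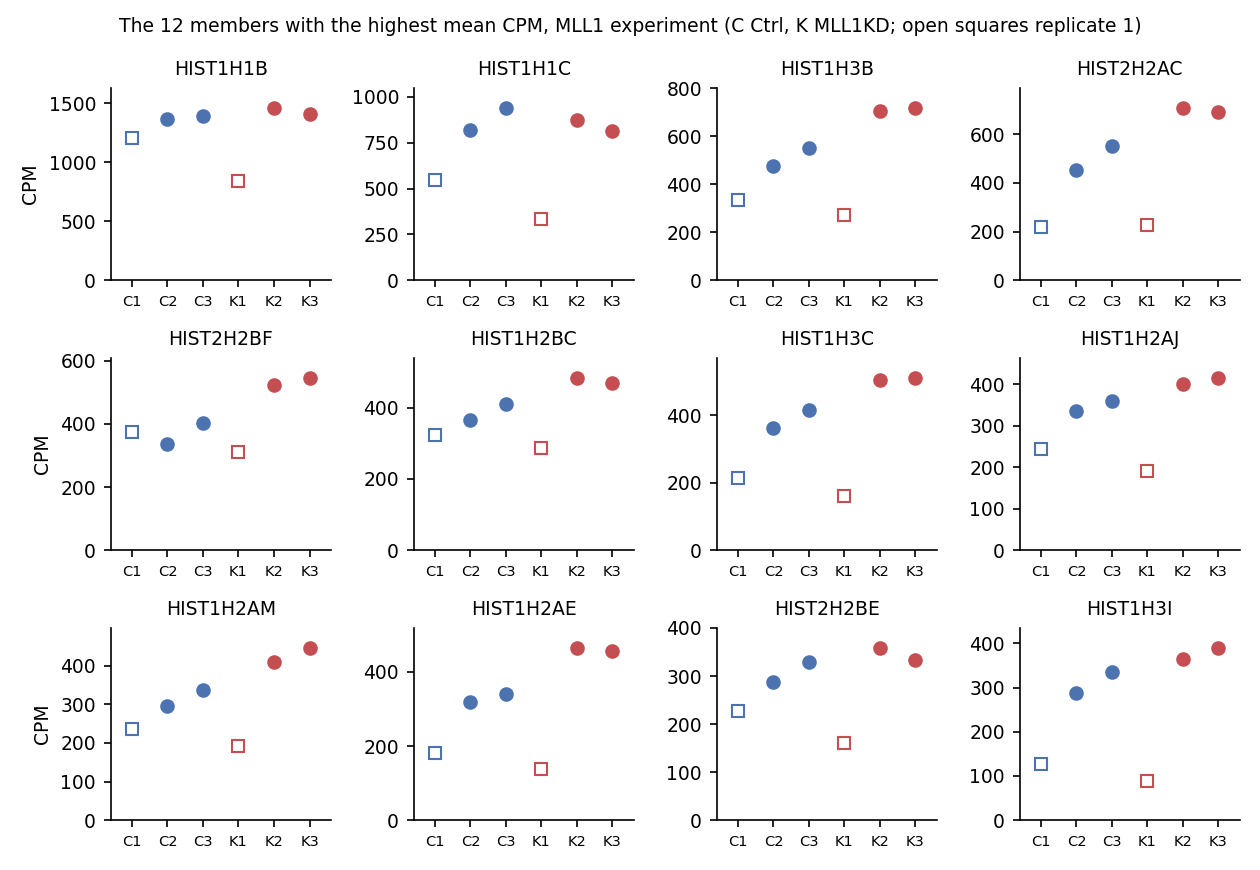
Levels in CPM (linear axis from 0, own scale in each panel) of the 12 members with the highest mean, 1 point per library, for Ctrl replicates 1 to 3 (C1 to C3) and MLL1KD replicates 1 to 3 (K1 to K3), replicate 1 as open squares. In HIST1H1B the values run from 843 to 1460 CPM, and in HIST1H3I, where replicate 1 is farthest below the rest, from 88.2 to 389 CPM.

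Replicate 1 against replicates 2 and 3, with the group in the fit, gave the largest differences of the members. Calls required both a 1.5-fold difference or more and an adjusted p below 0.05 (edgeR's quasi-likelihood test, Benjamini-Hochberg over all 14404 genes tested). Of 58 members tested, 43 (74.1%) were lower in replicate 1 and 0 higher, where 12.3% of all genes were called lower and 9.23% higher. The members' median log2 fold change was -0.90, against -0.01 over all genes. In 49 of 58 members the replicate 1 library lay below both others in Ctrl and in MLL1KD alike, an order shown by 30.7% of all genes. Tested within each group, 26 members were lower in replicate 1 of Ctrl (background 8.78%) and 50 in replicate 1 of MLL1KD (background 14.2%), with 1 replicate 1 library per group assumed to vary like the others. The 43 and the 50 include HIST1H1T, whose few counts are described below. Which property of replicate 1 goes with these differences was not tested.

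The 6 members with the largest falls came from 3 classes. HIST3H2A (chr1:228434777-228457873), the H2A gene of the HIST3 cluster, stood at 14.8, 58.1 and 68.9 CPM in Ctrl and at 19.6, 82.2 and 78.0 CPM in MLL1KD. It was 4.17-fold lower in replicate 1 (log2 fold change -2.06, SE 0.121, adjusted p 5.51e-11), and the lowest library of replicates 2 and 3 was above both of replicate 1. HIST1H3F (chr6:26250142-26250635) stood at 33.8, 90.0 and 92.4 CPM in Ctrl and at 23.8, 140 and 144 CPM in MLL1KD, a 4.0-fold difference (SE 0.163 on the log2 scale, adjusted p 5.9e-09). HIST1H3H (chr6:27810051-27811300) stood at 64.9, 154 and 191 CPM in Ctrl and at 36.3, 199 and 191 CPM in MLL1KD (log2 fold change -1.89, SE 0.153). HIST1H3D and HIST1H3I fell by 1.69 and 1.68 on the log2 scale (adjusted p 4.94e-10 and 1.4e-09). HIST1H3D (chr6:26196784-26197286), most of whose sequence is shared with an overlapping gene, stood at 39.6, 95.8 and 122 CPM in Ctrl and at 43.0, 161 and 161 CPM in MLL1KD. HIST1H1T (chr6:26107412-26108135), the testis linker histone gene, was called on few counts and passed the filter only through replicates 2 and 3, so its call is no evidence of a difference. It had 1 count in the 2 replicate 1 libraries and 48 in the other 4, a ratio of 0.0367 per count of depth with an exact 95% interval of 0.000911 to 0.215. Without it 42 of 57 members were lower in replicate 1.

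HIST2H2AC was 2.65-fold lower in replicate 1 (adjusted p 1.34e-10) and HIST1H1C 2.0-fold lower (adjusted p 6.57e-08). HIST1H1B was not called, since its log2 fold change of -0.47 (SE 0.08) stayed under the fold threshold, and HIST2H2BF, HIST1H2BC and HIST1H2BK were not called either, at -0.37, -0.495 and -0.41. By class, 12 of 13 H2A genes tested, 10 of 12 H3 genes, 8 of 10 H4 genes, 4 of 5 H1 genes and 9 of 18 H2B genes were called lower, with medians of -1.29, -1.25, -0.85, -1.001 and -0.59 on the log2 scale. The classes were not tested against each other. By position, 37 of 48 HIST1 genes, 4 of 8 HIST2 genes and both HIST3 genes tested were called lower. Of members sharing at least 50% of their words with another gene 7 of 11 were called, with a median of -0.78, and of the rest 36 of 47, with a median of -0.94. HIST1H1T, whose call is no evidence, is counted among the called H1 genes, HIST1 genes and these 36.

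**Figure D3:**
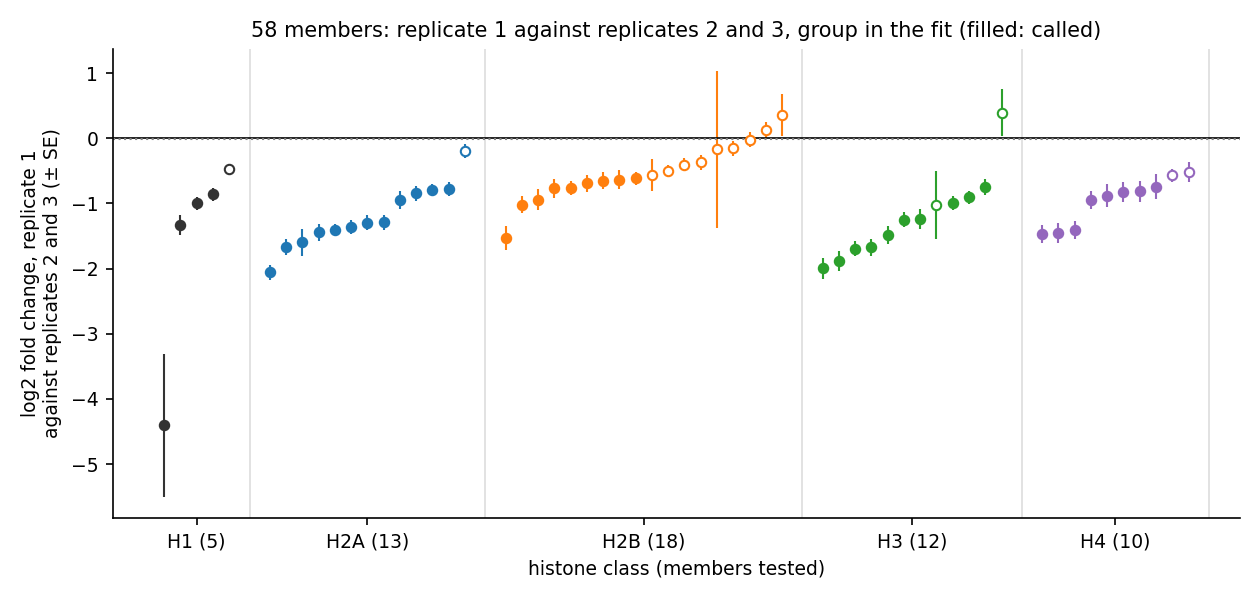
Log2 fold change of replicate 1 against replicates 2 and 3 for the 58 members tested, with SE bars, ordered within histone class and filled where called, with a dotted line at the median of all genes. All 43 filled points lie below 0, the lowest being HIST1H1T on 49 counts, and 9 of the 18 H2B genes are open.

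The values were also described by sequence feature, without a test between features. Of the 34 tested members with the stem-loop of HIST1H1B, 26 were called lower in replicate 1 (median -0.92). Those with C10A were called in 6 of 8 cases (-0.86), and the H4 genes with T4C and A13G in 6 of 7 (-0.82). HIST1H2BI, HIST1H3E and HIST1H4L, the 3 with T8C, stood at 0.13, 0.40 and -0.52 and none was called. They were singled out after these values were seen, and HIST1H3E rests on 11 to 49 counts per library. Members with an annotated transcript past the stem-loop were called in 8 of 14 cases (median -0.70) and those without in 35 of 44 (-0.92). Members with CCAAT in the promoter were called in 34 of 45 cases and those matched without it in 5 of 6. HIST1H1T, whose call is no evidence, is counted among those called with C10A, without a transcript past the stem-loop and with CCAAT.

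MLL1KD against Ctrl, the comparison that asks which genes depend on MLL1, called 0 of 58 members without the block, where 0.0694% of all genes were called. DESeq2 also called 0. The adjusted p was 0.264 or more for every member, and 2 had an unadjusted p under 0.05. Of the members, 51 had a log2 fold change above 0 and 7 below, with a median of 0.23 against 0.01 over all genes and a range of -0.22 to 1.28. With libraries matched by replicate number the median difference was -0.396, 0.453 and 0.307 in replicates 1, 2 and 3, an SD of 0.454 that exceeds the median itself. The numbers do not pair replicates 2 and 3 with their namesakes, so this SD is not a spread over 3 established pairs. HIST1H1B (-0.10, SE 0.204), HIST1H1C (-0.19, SE 0.357), HIST1H3B (0.31, SE 0.359) and HIST2H2AC (0.41, SE 0.465) all lay within 1 SE of 0 in this fit. With the replicate number as a block the SEs were smaller. These genes then stood at -0.14 (SE 0.081), -0.27 (SE 0.096), 0.22 (SE 0.105) and 0.34 (SE 0.083), all under the fold threshold. In the fit with the block 1 member was called higher, where 2.22% of all genes were, and the members' median was 0.14. There 16 members had an unadjusted p under 0.05.

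That member was HIST1H3E (chr6:26224199-26227473), an H3 gene with T8C in the loop printed above. It stood at 1.68, 1.67 and 1.4 CPM in Ctrl and at 4.88, 2.98 and 3.67 CPM in MLL1KD, on 13, 12 and 11 counts against 49, 21 and 34. All 3 MLL1KD libraries lay above all 3 controls. The log2 fold change was 1.28 (SE 0.345, adjusted p 0.264) without and 1.27 (adjusted p 0.0328) with the block, and DESeq2 did not call it in either fit. Of the other members only HIST1H2BI, named after its values were seen, had its groups apart, at 57.1, 38.5 and 44.9 CPM in Ctrl and 59.5, 65.6 and 67.8 CPM in MLL1KD. The 2 members in this order compare with 8.64% of all genes.

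The sign of the knockdown difference turned with the replicate. In replicates 2 and 3, 55 of 58 members had a log2 fold change above 0, with a median of 0.37, and in 49 both MLL1KD libraries lay above both controls, an order found in 27.5% of all genes. In replicate 1, 48 of 58 had MLL1KD below Ctrl (49.2% of all genes), with a median of -0.40. The difference between both effects, tested as an interaction with 2 residual degrees of freedom and replicate 1 assumed to vary like replicates 2 and 3, was called in 36 members, all more negative in replicate 1. Over all genes 2.08% were called in this direction, and the members' median difference was -0.70 against 0.01. DESeq2 called 26 members.

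HIST1H3F had a log2 fold change of 0.64 in replicates 2 and 3 and a difference of -1.15 (SE 0.174, adjusted p 1.9e-07). For HIST1H1C the knockdown log2 fold change was -0.06 in replicates 2 and 3 and -0.715 in replicate 1 (adjusted p 2.11e-17), a difference of -0.65 (SE 0.081). HIST2H2BF moved from 0.53 to -0.26 and HIST1H3B from 0.47 to -0.29. HIST2H2AC, at 0.48 and 0.05, and HIST3H2A, with a difference of 0.07, were not called. All 5 classes held called members, with 3 of 5 H1, 9 of 13 H2A, 11 of 18 H2B, 7 of 12 H3 and 6 of 10 H4 genes.

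Within replicates 2 and 3, 8 members were called higher in MLL1KD, where 2.56% of all genes were, and 0 lower. The spread for this test came only from replicate 2 against replicate 3, which lay close together (chi-square per degree of freedom 2.417 and 2.71). The adjusted p-values below therefore do not cover the difference from replicate 1. Other than HIST1H3F they are named here after their values were seen. HIST1H4D (chr6:26188710-26189112), whose promoter is printed above, stood at 40.9 and 47.5 CPM in Ctrl and 79.1 and 78.8 CPM in MLL1KD (1.78-fold, adjusted p 3.48e-11). In replicate 1 it stood at 36.8 CPM in Ctrl and 27.9 in MLL1KD. HIST3H2BB (chr1:228458103-228463104) stood at 49.4 and 57.4 CPM against 85.8 and 94.6 CPM (1.69-fold, adjusted p 1.35e-10), and at 33.7 against 35.7 CPM in replicate 1. Its divergent neighbour HIST3H2A, at 58.1 and 68.9 against 82.2 and 78.0 CPM, was not called. HIST1H3A (1.67-fold), HIST1H2BI (1.6-fold), HIST1H2BH, HIST1H2BF (1.51-fold) and HIST2H3D (1.5-fold) were the other 5. H2B and H3 genes made up 7 of the 8, and 18 H2B and 12 H3 genes were among the 58 members tested.

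Replicate 1 holds a single library per group, and the spread for a test within it was borrowed from replicates 2 and 3, from which it stood far apart. On that assumption, which these data cannot check, 9 members were called lower in MLL1KD, where 5.72% of all genes were, and 0 higher. Beside HIST1H1C and HIST1H3H these were HIST1H1D, HIST1H2AK, HIST1H2BH, HIST1H2BJ, HIST1H4I, HIST1H4J and HIST1H4K, named after their values were seen. HIST1H2BJ had the largest difference, at 18.7 CPM in Ctrl and 9.76 in MLL1KD. HIST1H1D stood at 130 and 79.8 CPM in replicate 1 and at 219 and 223 against 313 and 311 CPM in replicates 2 and 3, so its groups were apart in opposite orders. HIST1H2BH alone was called in both directions.

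**Figure D4:**
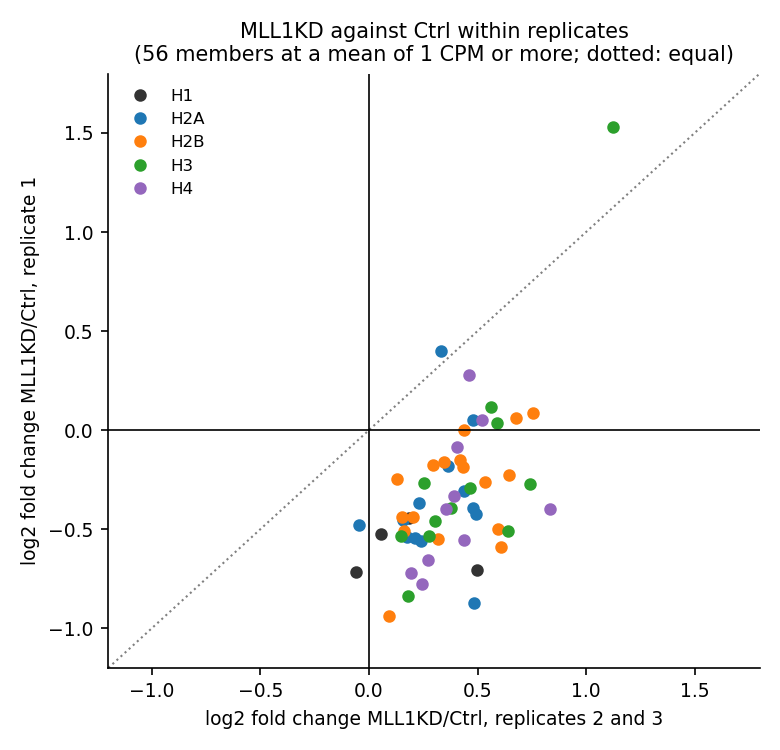
Log2 fold change of MLL1KD against Ctrl in replicates 2 and 3 (horizontal) and in replicate 1 (vertical) for the 56 tested members with a mean of 1 CPM or more, coloured by histone class, with a dotted line of equality. Of these, 45 lie in the lower right part, higher in MLL1KD in replicates 2 and 3 and lower in replicate 1, and 54 lie below the line.

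The factors that make and process these messages were followed as a list. Of 25 genes for histone mRNA processing and histone gene transcription, 0 were called in MLL1KD against Ctrl. In replicate 1, with the group in the fit, 0 were lower and 5 (20.0%) higher, where 12.3% and 9.23% of all genes were. Within MLL1KD alone LSM11 and POU2F1, named after their values were seen, were called lower in replicate 1 (8.0%, background 14.2%). There 5 genes were called higher, where 1647 of all 14404 genes were. SLBP, the stem-loop binding protein, stood at 104, 130 and 136 CPM in Ctrl and at 99.6, 96.3 and 102 CPM in MLL1KD, and its knockdown log2 fold change of -0.31 (SE 0.135) had an adjusted p of 0.5. NPAT stood at 92.4, 102 and 96.3 CPM in Ctrl and at 67.3, 102 and 94.9 CPM in MLL1KD (replicate 1 log2 fold change -0.32, SE 0.099, under the fold threshold). HINFP stood at 78.7, 61.3 and 63.3 CPM in Ctrl and at 88.4, 60.8 and 66.5 CPM in MLL1KD (0.41 in replicate 1, not called). Higher in replicate 1 were SRRT, CSTF2, CCNE1, ZNF473 and CCNE2, of which SRRT, which encodes ARS2, a partner of the nuclear cap-binding complex, stood at 270 and 346 CPM in replicate 1 and at 79.1 to 90.3 CPM in the other 4 libraries. With the block MIF4GD, which acts with SLBP in translation, fell by 0.878 on the log2 scale and NCBP2 by 0.617, and LSM11, a U7 protein, rose by 0.66. Over all genes 2.52% were called lower and 2.22% higher with the block.

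Histone genes whose messages are polyadenylated also differed by replicate. Of 8 such genes tested, 4 were called lower in replicate 1 (12.3% of all genes) and 0 higher, with a median of -0.60 beside -0.90 for the members. H1F0, a linker histone of resting cells, stood at 676, 2000 and 1980 CPM in Ctrl and at 380, 1850 and 1850 CPM in MLL1KD (-1.91, adjusted p 9.98e-12). H1FX stood at 65.1, 299 and 318 CPM in Ctrl and at 50.9, 294 and 278 CPM in MLL1KD (-2.37, adjusted p 2.09e-14). The other 2 were H2AFX, whose messages occur with and without a tail, and CENPA, the centromeric histone H3. None of the 8 was called in MLL1KD against Ctrl, and 1, H1F0, in the interaction (-0.73).

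Of 32 genes of DNA replication and S phase tested, 11 (34.4%) were called higher in replicate 1, where 9.23% of all genes were, and 0 lower, with a median of 0.40. The other 21 did not pass, and within MLL1KD alone CDT1, likewise named after its value was seen, was called lower. For the whole list the summed level was 5731 and 5006 CPM in replicate 1 and 3699 to 4348 CPM in the other libraries. The largest rises were those of FEN1 (1.05), GINS1 (0.98), POLE (0.93) and CDC6 (0.91), which act at the replication fork or in licensing. In MLL1KD against Ctrl 0 were called (median -0.23). Of RNAs without a poly(A) tail outside the histone genes, such as small nuclear and small nucleolar RNAs, 311 were tested, and 30 (9.65%) were higher and 5 lower in replicate 1 (median 0.61), so the share called higher was near the 9.23% of all genes. The summed level of all 609 such RNAs, tested or not, was 10920 to 12290 CPM across the 6 libraries. Most of it came from RN7SK, RN7SL1 and RN7SL2, named after their values were seen, so it says little about the rest. RN7SK stood at 5000 and 5090 CPM in replicate 1 and at 4100 to 4760 CPM in the other libraries. RN7SL2 stood at 1880 and 1640 CPM against 2500 to 3080 CPM, and RN7SL1 overlapped. Of the 12 erythroid and megakaryocyte markers, 3 were called lower and 1 higher in replicate 1. The part that S phase share, RNA capture or cell state have in the members' difference was not tested.

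The AF9 experiment held too few reads of the histone genes to follow most of them. MLLT3, the gene targeted there, fell from 548 and 528 CPM in its controls to 107 and 92.6 CPM in AF9KD. Of the 57 members with counts in both experiments, 50 had a mean under 1 CPM in the AF9 experiment, 5 lay between 1 and 10 CPM and 2 above. In the MLL1 experiment 52 of all 74 members reached 10 CPM and 27 reached 100 CPM. HIST1H1B, with 8469 to 13067 counts in the MLL1 libraries, had 2 to 5 in the AF9 libraries. HIST1H1C and HIST1H2BK together held most of what was left. HIST1H1C made up 51.0% and 55.1% of the members' counts in the AF9 controls and 40.3% and 44.2% in AF9KD, beside 6.31% to 8.56% in the MLL1 experiment. HIST1H2BK (chr6:27146361-27146855) made up 32.4% to 36.3%, beside 1.89% to 2.99%. The 5 members between 1 and 10 CPM were HIST2H2BE, HIST1H2AC, HIST1H2BC, HIST1H2BD and HIST1H2BJ, each among the 19 with an annotated transcript past the stem-loop. The other 14 of these 19 lay under 1 CPM, and HIST1H1C and HIST1H2BK are not among the 19.

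Other RNAs without a poly(A) tail were low in the same libraries. Their summed level was 201.6 to 247.5 CPM in the AF9 experiment against 10920 to 12290 CPM in the MLL1 experiment, and RN7SK, a small nuclear RNA, had 55 to 118 counts against 29482 to 51099. Other genes also differed. In the controls KMT2A stood at 1320, 1300 and 1260 CPM in the MLL1 experiment and at 475 and 455 CPM in the AF9 experiment. MLLT3 stood at 188, 227 and 228 CPM and at 548 and 528 CPM. The 12 erythroid and megakaryocyte markers summed to 3736 to 3810 CPM and to 10440 and 10770 CPM. The 25 histone mRNA processing and transcription genes lay closer, at 2149 to 2499 CPM and at 2140 and 2155 CPM. The labels give both experiments the same capture of polyA RNA, and which of the 2 RNA kits named was used for which library is not stated. The experiments were not tested against each other, since library preparation and experiment cannot be told apart.

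**Figure D5:**
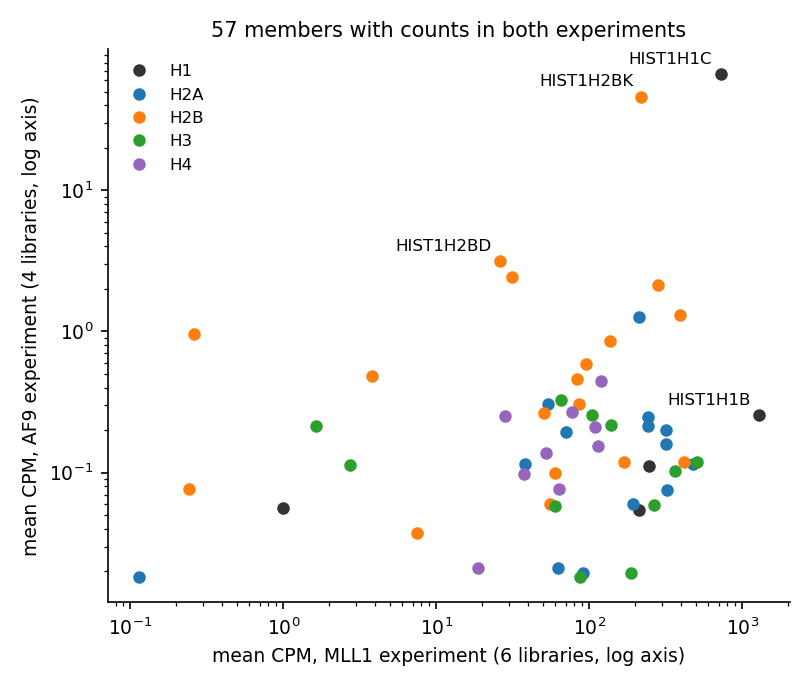
Mean CPM of the 57 members with counts in both experiments, in the 6 libraries of the MLL1 experiment (horizontal) and the 4 of the AF9 experiment (vertical), both on log axes and coloured by histone class. HIST1H1C and HIST1H2BK lie alone above 10 CPM on the vertical axis, and HIST1H1B lies farthest right but under 1 CPM on the vertical axis.

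AF9KD against its controls called 3 of 31 members tested lower and 0 higher, where 5.06% of all 13353 genes were called lower. HIST1H1C stood at 95.9 and 107 CPM in the controls and at 29.1 and 32.7 CPM in AF9KD, a 3.27-fold difference (log2 fold change -1.71, SE 0.111, adjusted p 7.94e-07). HIST1H2BK stood at 68.3 and 62.7 CPM against 25.7 and 26.5 CPM, 2.51-fold lower (adjusted p 8.28e-06). HIST1H2BD (chr6:26158122-26171349) stood at 5.74 and 2.94 CPM against 1.94 and 1.95 CPM, on 79 and 35 counts against 25 and 26 (2.25-fold, adjusted p 0.0205). In all 3 the groups did not overlap, though the controls of HIST1H2BD were far apart. Its log2 fold change of -1.17 became -0.598 without Ctrl replicate 1, and DESeq2 did not call it (adjusted p 0.0709). With the block 6 members were called lower, where 740 of all 13353 genes were, HIST2H2BE, HIST1H2BE and HIST1H2BJ being the 3 added. Of the 31 tested, 22 had at most 10 counts in every library, so differences in them were not detectable at this depth. In the MLL1 experiment the same 3 members gave no call in MLL1KD against Ctrl, HIST1H2BK standing at 208, 207 and 245 CPM in Ctrl and 154, 241 and 261 CPM in MLL1KD, and HIST1H2BD at 20.8, 27.0 and 29.7 CPM in Ctrl and 17.5, 31.2 and 30.8 CPM in MLL1KD. Both experiments used HEL cells but different hairpins and separate controls, and the effects of both knockdowns were not tested against each other.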

How the data were processed

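RNA-seq libraries (6 in the MLL1 experiment, 4 in the AF9 experiment) of HEL cells were analysed from whole-number read counts per gene that the authors deposited. Per the submitters' processing notes, HISAT2 2.1.0, fastp 0.13.1, featureCounts 1.6.1 and the build hg38 were used, and the annotation is not given in the sources used here. The binding and nascent transcription tracks of the series were not used here. Members and gene lists were chosen with earlier results of these data known. Coordinates, exon lengths and stem-loops came from GENCODE v44 on hg38 and promoters from RefSeq on GRCh38.p14.

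Genes with a mean of at least 1 TPM (or 1 CPM without a length) were tested within each experiment by edgeR 4.0.16 in R 4.3.3 (TMM scaling, quasi-likelihood test, Benjamini-Hochberg over all genes tested). The SE of a log2 fold change is its size divided by the square root of F, and fitted folds carry a prior count of 2. A call needed a fold of 1.5 and an adjusted p under 0.05. Totals of 6966345 to 14232408 counts set the precision, with exact 95% intervals and a floor of 3 counts. The script was tested on simulated data. Replicate numbers, shared by groups in the labels, were checked for pairing: deviations from group means correlated at 0.648, 0.325 and 0.351 between libraries of the same number, but 2 and 3 also correlated crosswise (0.368 and 0.36), and replicate 1 with the others at -0.507 to -0.453. The numbers thus set replicate 1 apart in both groups but do not pair replicates 2 and 3 with their namesakes. In the AF9 experiment, with 2 libraries per group, both pairs must give the same value, which was 0.156. The main comparison had no block, since the methods of the study name no replicate term.

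Named were KMT2A and MLLT3, the 12 members with the highest mean CPM, the called members with up to 6 largest rises and falls in the knockdown and replicate comparisons, members called in AF9KD, SLBP, NPAT and HINFP, and up to 4 called genes per list. Alternatives were a block or batch term, other scalings and filters, DESeq2 1.42.0, and leaving out each library. The block with DESeq2 and the alternatives of the interaction were added after seeing the data.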

Additional observations from a re-analysis of the deposited data

Results flagged for a closer look

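The effect of the MLL1 knockdown differed between replicate 1 and replicates 2 and 3 in 36 of the 58 members tested (edgeR interaction term), with the log2 fold change more negative in replicate 1 in each. Replicate 1 has 1 library per group, so the test assumes that it varies like replicates 2 and 3. Among the members named by rule, the difference of the log2 fold change, replicate 1 minus replicates 2 and 3, was -0.65 in HIST1H1C, -0.76 in HIST1H3B, -0.79 in HIST2H2BF, -0.77 in HIST1H3C and -0.6 in HIST1H2AJ. It was -0.75 in HIST1H2AM, -0.87 in HIST1H2AE, -0.67 in HIST2H2BE and -0.81 in HIST1H3I. It was -1.15 in HIST1H3F, -1.02 in HIST1H3H and -0.59 in HIST1H2BK. The share of all genes called in this direction was 2.08%. No group held 4 or more libraries, so single outlying libraries were not tested for.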

How the results depend on the processing

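Of the members tested, MLL1KD against Ctrl called 0. It called 1 with the replicate block or with replicate 1 as a batch term, and 8 with replicates 2 and 3 alone. It called 0 without each library in turn, while the members' median then ran from 0.043 to 0.539. Over all genes it called 10 without a block, 683 with the block, 753 with the batch term, 704 in replicates 2 and 3 alone, 232 with DESeq2, 32 without the filter and 6 with total counts. The replicate 1 comparison called 43 members, 26 within Ctrl alone and 25 to 50 when a library was left out, the fewest without MLL1KD replicate 1 and the most without Ctrl replicate 1. The interaction called 36, and 26 with DESeq2, over all genes 436 and 139. AF9KD called 3 and, with the replicate block, 6, over all genes 1746 and 1961. With DESeq2 it called 2, where the call of HIST1H2BD was lost. The log2 fold change of HIST1H2BD ran from -1.561 to -0.598 when a library was left out. The block is a fit with each replicate number as a term, and the causes of these changes were not tested. No called value changed sign under these alternatives, but MLL1KD against Ctrl held no called member to which this applies. There 15 of 195 values of the 13 named members changed sign over the alternatives, and 2 became calls. In the replicate 1 comparison 2 of 220 values of 17 named members changed sign, with 6 calls gained and 8 lost. In AF9KD 0 of 30 values changed sign and 1 call was lost.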
